A study of Mus musculus with 10 samples.

Results

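Transcripts that mark macrophages, dendritic cells and neutrophils were followed in the terminal ileum of mice after repeated social defeat. The set was given by name as 40 genes, and 39 of the 18193 genes with a probe set of their own on the array belonged to it. Where a gene had several probe sets, the one brightest on average across the 10 arrays stood for it. Lilrb4a, an inhibitory receptor of myeloid cells, lay on a probe set that carries 2 gene symbols and was not used. Of the 39 genes, 36 lay above the floor on low values and entered the test, and Marco, S100a8 and S100a9 lay below it.

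The 5 stressed mice were male C57BL/6JJmsSlc mice, 7 weeks of age per the labels, that were attacked by an older resident male of the ICR strain over 10 days. Physical contact lasted 5 min on day 1, became 0.5 min shorter each day and lasted 0.5 min on day 10. The 5 control mice were unstressed males of the same strain and age. All were housed singly before the experiment, had AIN-93G, a purified diet, as food and went 3 h without it before the lower small intestine was taken, and each mouse gave 1 array. Whether Peyer's patches, the lymphoid follicles of the ileal wall, were removed is not given in the sources used here.

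Macrophages of the gut wall arise from blood monocytes under the growth factor receptor encoded by Csf1r, take up microbes and dying cells, and break them down in lysosomes. Dendritic cells depend on the receptor encoded by Flt3 and carry antigen to T cells. Many products of the set act in pairs: the integrin chains Itgam and Itgax each need Itgb2, and many Fc receptors and lectins of myeloid cells signal through the adaptors encoded by Fcer1g and Tyrobp.

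By limma, none of the 36 tested genes had a Benjamini-Hochberg adjusted p under 0.05, with all mice or without control mouse 1. All but 3 nevertheless had a lower mean in stressed than in control mice, by small amounts. Over all 10 arrays 33 of 36 were lower, against 49.1% of all 13666 genes tested, and without control mouse 1 the count was again 33, against 43.8%. The 33 were not the same genes, as Mrc1, Clec10a, Lyz2 and Cybb differed in sign between the comparisons. With 1 of the 10 mice left out the count ran from 27 to 34, and some of these differences were close to 0. The median difference (stressed minus control, log2) over the 36 genes was -0.13 over all 10 arrays and -0.21 without control mouse 1, where the medians over all genes were 0.0031 and 0.03. Over all 10 arrays the largest differences in size were those of Lgmn, Cd209a and Fcer1g, between -0.41 and -0.39. Those of Adgre1, Mrc1, Fcgr3, Trem2, Zbtb46, Siglech and Ngp were at most 0.10 in size in either comparison. Several genes of the set are also transcribed in other cells, and in whole tissue fewer cells of a type and less RNA per cell cannot be told apart.

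Over all genes, limma called 0.00% at an adjusted p under 0.05 over all 10 arrays and 0.798%, or 109 genes, without control mouse 1. At an unadjusted p under 0.05, 13 of the 36 genes were lower over all 10 arrays, which is 36.1% of them against 3.96% of all genes. None of the 36 was higher, against 3.86% of all genes. Without control mouse 1 the count was again 13 lower, against 6.56% of all genes, and 1 higher, against 11.4%. The 13 genes were not the same in both comparisons: Cd14, Itgb2, C1qc, Fcgr1, Fcgr2b, Fcer1g, Cd209a, Ctss, Lgmn and Csf3r were in both. Cd68, Tyrobp and Flt3 were in the first alone, and Spi1, Itgam and Itgax in the second alone. The values of the groups did not overlap, with all stressed mice lower, for 2 of 36 genes over all 10 arrays (Fcgr2b and Csf3r), against 1.12% of all genes. Without control mouse 1 this held for 3 (with Itgb2), against 2.72% of all genes. For no gene of the set did all stressed mice lie above all controls, which was so for 1.16% and 4.51% of all genes.

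Which mice are in the comparison bears on these counts. Without stressed mouse 2, 4 of the 36 genes were lower at an unadjusted p under 0.05 with the other 9 arrays, against 3.31% of all genes. The count was 6 without stressed mouse 5 (3.02% of all genes), 6 without control mouse 2 (3.85%) and 8 without control mouse 3 (3.34%). With control mouse 1 left out as well, it was 6 without stressed mouse 2 (6.37% of all genes), control mouse 2 (7.34%) or control mouse 3 (5.41%), and 20 without control mouse 5 (6.88%). Control mouse 2 had the highest value of the 10 mice in 19 of the 36 genes, and stressed mouse 2 the lowest in 9. Control mouse 1 was highest in 9 and lowest in 11.

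The arrays of control mouse 1 and stressed mouse 4 stood apart in Car1 and Aqp8, 2 of 7 large intestine markers looked at. Control mouse 1 correlated with the other arrays at 0.918 to 0.947 across genes, and they with one another at 0.975 to 0.995. Car1, a carbonic anhydrase typical of the large intestine, was at 13.32 in stressed mouse 4 and at 4.95 to 7.41 in the other stressed mice. It was at 14.17 in control mouse 1 and at 4.95 to 7.06 in the other controls. Aqp8, a water channel of the same region, was at 7.26 in stressed mouse 4 and 7.50 in control mouse 1, against 4.15 to 4.49 in the other mice. The other large intestine markers, Hox genes, lay below the floor on low values on average. Hoxd10 was at 7.30 in control mouse 1, 4.46 in stressed mouse 4 and 2.34 to 2.99 in the other mice. Hoxd11, Hoxd12, Hoxd13 and Hoxb13 were at most 4.13 in these 2 arrays. The mean of 4 Paneth cell genes was 8.53 in control mouse 1 and at least 11.94 in every other mouse. That of 6 ileal epithelium genes was 9.44 in control mouse 1, 11.96 in stressed mouse 4 and at least 11.60 in the other mice. With both arrays left out, 9 of the 36 genes were lower at an unadjusted p under 0.05, against 5.11% of all genes. The part of these arrays' cell make-up in the results was not tested beyond leaving them out.

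**Figure D1:**
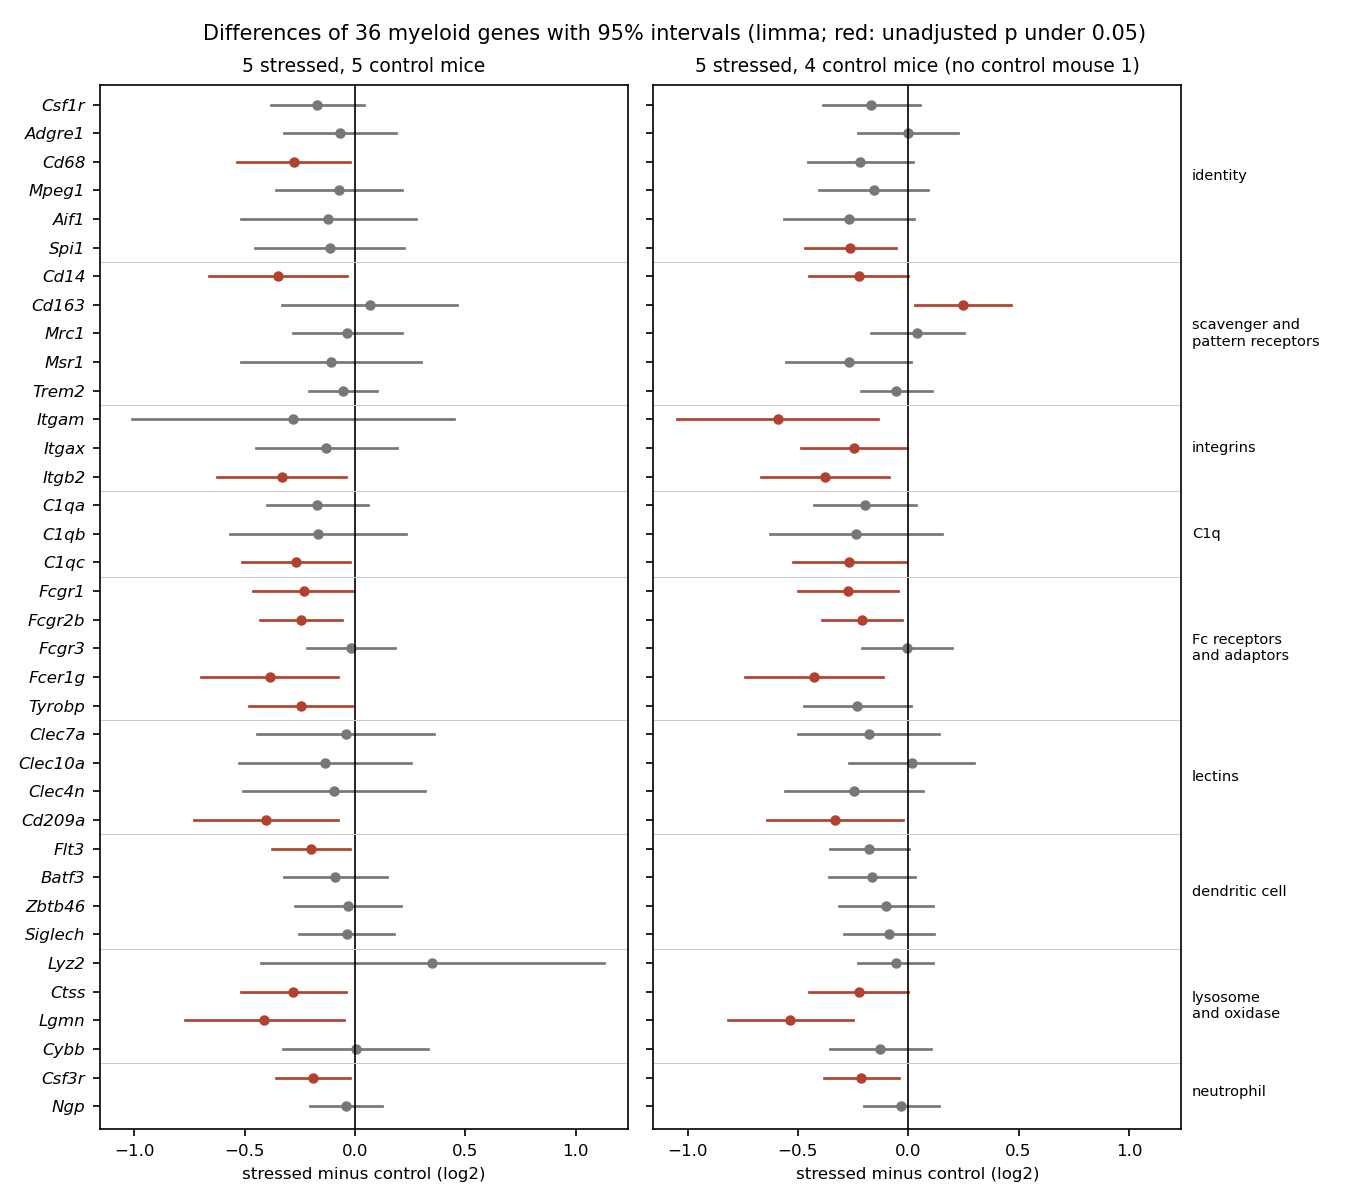
Stressed minus control difference (log2) of the 36 tested genes with limma's 95% interval, all 10 arrays on the left and without control mouse 1 on the right; genes run down the page by role. Most points lie left of 0, by at most 0.41 on the left panel and 0.59 on the right, and red marks an unadjusted p under 0.05.

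Genes by which macrophages are recognised showed small differences. Csf1r, the receptor for the growth factor on which macrophages depend, was at 9.87, 9.68, 9.75, 9.74 and 9.56 in stressed mice, against 9.91, 10.17, 9.82, 9.85 and 9.71 in control mice. Control mouse 2 was the highest and stressed mouse 5 the lowest, and the groups overlapped. The difference was -0.17 ± 0.10 (SE) over all 10 arrays and the same without control mouse 1, with limma adjusted p of 0.735 and 0.400. Adgre1, which encodes a macrophage surface marker, differed by -0.07 ± 0.12 (SE) over all 10 arrays and by -0.0004 ± 0.10 (SE) without control mouse 1. The 95% interval of that second difference ran from -0.23 to 0.23. Mpeg1, a pore-forming protein of phagocytes, differed by -0.07 ± 0.13 (SE) and -0.16 ± 0.11 (SE).

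Cd68, a lysosomal membrane protein of macrophages, was at 5.85, 5.54, 5.93, 5.84 and 5.74 in stressed mice and at 6.30, 6.24, 6.09, 5.84 and 5.82 in control mice. Control mice 4 and 5 lay within the stressed range and the other controls above it. It differed by -0.28 ± 0.12 (SE, limma adjusted p = 0.600) over all 10 arrays and by -0.22 ± 0.11 (SE), at a limma adjusted p of 0.320, without control mouse 1. Spi1, which encodes PU.1, the Ets transcription factor needed for myeloid and B cell development, was at 5.26, 5.10, 5.24, 5.27 and 5.10 in stressed mice. In control mice it was at 4.72, 5.63, 5.56, 5.43 and 5.21. Control mouse 1 was the lowest of all 10 mice, and control mice 2, 3 and 4 lay above every stressed mouse. Its difference was -0.11 ± 0.15 (SE) over all 10 arrays and -0.26 ± 0.09 (SE, limma adjusted p = 0.180) without control mouse 1. Aif1, which encodes an actin-binding protein of macrophages, differed by -0.12 ± 0.18 (SE) and -0.27 ± 0.13 (SE).

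Scavenger and pattern receptors did not share a direction. Cd14, the co-receptor for bacterial lipopolysaccharide, was at 7.14, 7.16, 7.35, 7.37 and 7.16 in stressed mice, against 8.07, 7.70, 7.56, 7.28 and 7.30 in control mice. Control mice 1, 2 and 3 were above all stressed mice, while control mice 4 and 5 overlapped with stressed mice 3 and 4. The difference was -0.35 ± 0.14 (SE, limma adjusted p = 0.596) over all 10 arrays and -0.23 ± 0.10 (SE, limma adjusted p = 0.273) without control mouse 1. Cd163, the receptor for haptoglobin and haemoglobin on resident macrophages, was at 6.03, 5.71, 6.18, 6.18 and 6.12 in stressed mice. In control mice it was at 6.70, 5.72, 5.79, 5.81 and 5.86. Control mouse 1 lay above every other mouse, and without it 4 stressed mice lay above all 4 controls, with stressed mouse 2 below them. It differed by 0.07 ± 0.18 (SE, limma adjusted p = 0.948) over all 10 arrays and by 0.25 ± 0.10 (SE, limma adjusted p = 0.224) without that mouse.

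The mannose receptor Mrc1 differed by -0.04 ± 0.11 (SE) over all 10 arrays and by 0.04 ± 0.10 (SE) without control mouse 1. Msr1, a scavenger receptor for modified lipoproteins, differed by -0.11 ± 0.19 (SE) and -0.27 ± 0.13 (SE), and Trem2, a lipid-sensing receptor, by -0.05 ± 0.07 (SE) in either comparison. The other 2 probe sets of Msr1 above the floor differed by -0.32 and -0.11 over all 10 arrays, and by -0.36 and -0.15 without control mouse 1. Marco, a scavenger receptor below the floor of 4.15, was at 3.06 to 3.65 in stressed and 3.13 to 3.95 in control mice.

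The integrin chains had lower means in stressed mice in all 3 cases, and the differences of Itgam and Itgax were larger without control mouse 1, the lowest of the controls in both. Itgb2, the common beta chain of the leukocyte integrins, was at 6.46, 6.24, 6.33, 6.42 and 5.98 in stressed mice, against 6.44, 7.06, 6.50, 6.56 and 6.52 in control mice. Stressed mouse 1 lay just above control mouse 1, and all stressed mice lay below the other 4 controls. The difference was -0.33 ± 0.13 (SE, limma adjusted p = 0.582) over all 10 arrays and -0.38 ± 0.13 (SE, limma adjusted p = 0.175) without control mouse 1. Itgb2 is also transcribed in lymphocytes.

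Itgam, the CD11b chain, was at 4.44, 5.05, 4.83, 4.67 and 4.37 in stressed mice. In control mice it was at 3.70, 5.76, 4.60, 5.39 and 5.30. Control mouse 1 was the lowest and control mouse 2 the highest, and control mouse 3 lay inside the stressed range. Itgam had low values, with control mouse 1 below the floor of 4.15 and stressed values of 4.37 and 4.44 near it. It differed by -0.28 ± 0.33 (SE, limma adjusted p = 0.870) over all 10 arrays and by -0.59 ± 0.21 (SE), at a limma adjusted p of 0.175, without control mouse 1, a fold of 0.664. Itgax, the CD11c chain of dendritic cells and some macrophages, was at 6.69, 6.51, 6.55, 6.45 and 6.11 in stressed mice and at 6.12, 6.80, 6.69, 6.79 and 6.56 in control mice. Control mouse 1 and stressed mouse 5 were the lowest, and stressed mouse 1 was level with control mouse 3. The difference was -0.13 ± 0.15 (SE, limma adjusted p = 0.860) and -0.25 ± 0.11 (SE, limma adjusted p = 0.270).

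The 3 chains of C1q, the recognition molecule of the classical complement pathway that macrophages secrete, differed by like amounts. C1qc was at 7.39, 7.17, 7.47, 7.26 and 7.06 in stressed mice, against 7.54, 7.82, 7.61, 7.37 and 7.36 in control mice. Control mice 1, 2 and 3 lay above every stressed mouse, and control mice 4 and 5 overlapped with stressed mice 1 and 3. It differed by -0.27 ± 0.11 (SE, limma adjusted p = 0.600) over all 10 arrays and by -0.27 ± 0.12 (SE), at a limma adjusted p of 0.259, without control mouse 1. C1qa differed by -0.17 ± 0.10 (SE) and -0.20 ± 0.11 (SE), and C1qb by -0.17 ± 0.18 (SE) and -0.24 ± 0.18 (SE). The other 2 probe sets of C1qb differed by -0.26 and -0.14 over all 10 arrays.

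Fc receptors bind the constant part of antibodies, and 4 of the 5 tested genes of receptors and adaptors were lower at an unadjusted p under 0.05 over all 10 arrays, against 3.96% of all genes, and 3 without control mouse 1, against 6.56%. Fcgr2b, the inhibitory IgG receptor, was at 7.33, 7.28, 7.28, 7.34 and 7.32 in stressed mice, against 7.69, 7.37, 7.72, 7.60 and 7.40 in control mice. The stressed values lay within a narrow range, and all were below the lowest control. The difference was -0.24 ± 0.08 (SE, limma adjusted p = 0.497) over all 10 arrays and -0.21 ± 0.08 (SE, limma adjusted p = 0.220) without control mouse 1. Its other 3 probe sets above the floor differed by -0.44, -0.34 and -0.41 over all 10 arrays. B cells transcribe Fcgr2b as well.

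Fcer1g, the gamma chain adaptor of several Fc receptors, was at 7.75, 7.54, 7.71, 7.65 and 7.56 in stressed mice. In control mice it was at 7.87, 8.39, 8.37, 7.82 and 7.70. Control mice 2 and 3 stood well above the rest, and control mouse 5 lay among the stressed mice. It differed by -0.39 ± 0.14 (SE, limma adjusted p = 0.521) over all 10 arrays and by -0.43 ± 0.14 (SE), at a limma adjusted p of 0.160, without control mouse 1, a fold of 0.745. Fcer1g is also used by mast cells and natural killer cells. Tyrobp, the adaptor DAP12, was at 8.31, 7.94, 8.20, 8.20 and 8.08 in stressed mice and at 8.45, 8.58, 8.53, 8.24 and 8.14 in control mice. Control mice 1, 2 and 3 were above all stressed mice and control mice 4 and 5 among them. The difference was -0.25 ± 0.11 (SE, limma adjusted p = 0.611) and -0.23 ± 0.11 (SE, limma adjusted p = 0.297).

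Fcgr1, the high-affinity IgG receptor, was at 5.60, 5.27, 5.47, 5.62 and 5.62 in stressed mice, against 5.58, 5.62, 6.01, 5.84 and 5.69 in control mice. Control mice 3, 4 and 5 lay above all stressed mice, and control mice 1 and 2 overlapped with them. It differed by -0.23 ± 0.10 (SE, limma adjusted p = 0.633) and -0.27 ± 0.10 (SE, limma adjusted p = 0.202). Its second probe set differed by -0.06 and -0.16. Fcgr3, an activating IgG receptor that signals through Fcer1g, differed by -0.02 ± 0.09 (SE) and -0.01 ± 0.09 (SE), and its 95% interval over all 10 arrays ran from -0.22 to 0.18. The probe set shared by Lilrb4a and Lilr4b was at 5.55 to 5.95 in stressed mice and at 5.84 to 6.80 in control mice, and was not tested.

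**Figure D2:**
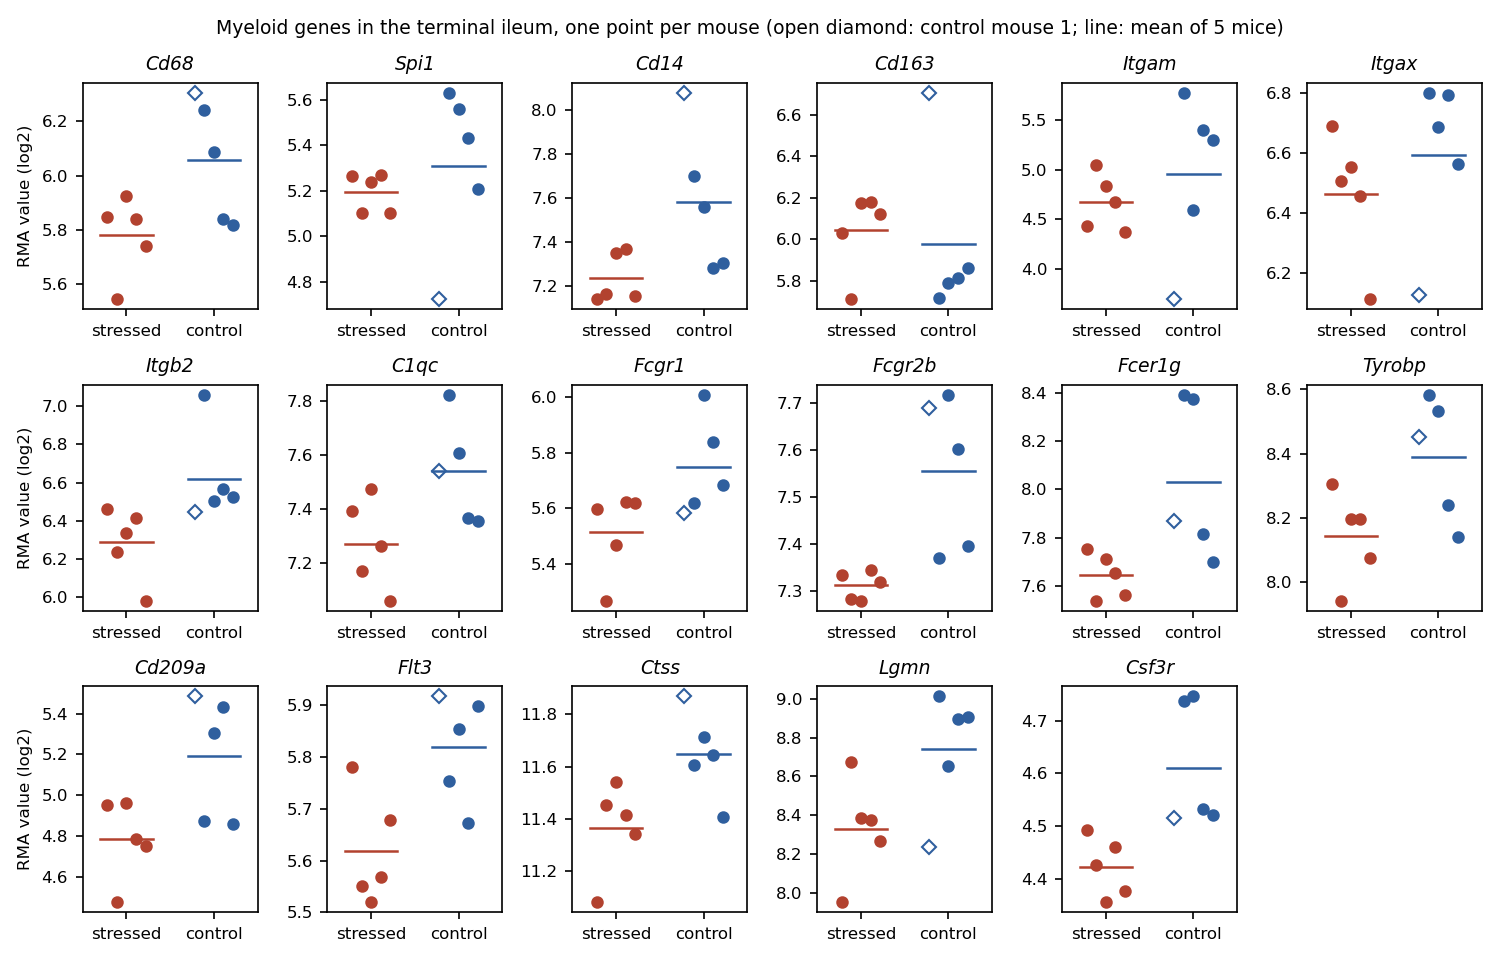
RMA value (log2) in each mouse for the 17 genes at an unadjusted p under 0.05 in either comparison, stressed mice on the left of each panel and control mice on the right; lines are means of 5 mice and the open diamond is control mouse 1. Fcgr2b and Csf3r separate the groups completely, and control mouse 1 is at an end of the control range for most genes.

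Of the lectins, Cd209a, a receptor of monocyte-derived dendritic cells related to human DC-SIGN, was at 4.95, 4.48, 4.96, 4.79 and 4.75 in stressed mice. In control mice it was at 5.48, 4.87, 5.31, 5.43 and 4.86. Control mice 1, 3 and 4 were above all stressed mice, and control mice 2 and 5 lay among them. It differed by -0.40 ± 0.15 (SE, limma adjusted p = 0.532) over all 10 arrays and by -0.33 ± 0.14 (SE), at a limma adjusted p of 0.246, without control mouse 1. Clec7a, the beta-glucan receptor Dectin-1, differed by -0.04 ± 0.18 (SE) and -0.18 ± 0.15 (SE), and Clec4n, which encodes Dectin-2, by -0.09 ± 0.19 (SE) and -0.25 ± 0.14 (SE). The second probe set of Clec4n above the floor differed by -0.33 and -0.46. Clec10a, a receptor for galactose-type sugars, differed by -0.13 ± 0.18 (SE) over all 10 arrays and by 0.01 ± 0.13 (SE) without control mouse 1.

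Among the dendritic cell genes, Flt3 was at 5.78, 5.55, 5.52, 5.57 and 5.68 in stressed mice, against 5.92, 5.75, 5.85, 5.67 and 5.90 in control mice. Stressed mouse 1 lay above control mice 2 and 4, and 3 stressed mice lay below all controls. The difference was -0.20 ± 0.08 (SE, limma adjusted p = 0.587) over all 10 arrays and -0.18 ± 0.08 (SE, limma adjusted p = 0.284) without control mouse 1. Batf3, a transcription factor of cross-presenting dendritic cells, differed by -0.09 ± 0.11 (SE) and -0.16 ± 0.09 (SE). Zbtb46, a transcription factor of conventional dendritic cells, differed by -0.03 ± 0.11 (SE) and -0.10 ± 0.10 (SE), and Siglech, a marker of plasmacytoid dendritic cells, by -0.04 ± 0.10 (SE) and -0.09 ± 0.09 (SE). The other probe sets of Zbtb46, all below the floor of 4.15, differed by 0.15, -0.07 and -0.08 over all 10 arrays. For Batf3, Zbtb46 and Siglech the groups overlapped in either comparison.

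The genes of degradation and oxidative killing gave the smallest adjusted p of the set without control mouse 1. Lgmn, the lysosomal protease legumain, was at 7.95, 8.67, 8.39, 8.37 and 8.27 in stressed mice. In control mice it was at 8.24, 9.01, 8.65, 8.89 and 8.91. Control mouse 1 lay among the stressed mice, and of the stressed mice only stressed mouse 2 reached the lowest of the other 4 controls. It differed by -0.41 ± 0.16 (SE, limma adjusted p = 0.582) over all 10 arrays and by -0.54 ± 0.13 (SE), at a limma adjusted p of 0.0746, without control mouse 1, a fold of 0.690. It passed at a limma adjusted p of 0.0371 without control mouse 1 and stressed mouse 2, the highest of the stressed mice. It also passed at 0.0412 without control mouse 1 with each array centred on its median. Over the 17 alternative settings without control mouse 1 its limma adjusted p ran from 0.0371 to 0.420, and it passed in these 2 alone. Lgmn is also transcribed outside the myeloid lineage.

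Ctss, a protease that trims the invariant chain of MHC class II, was at 11.08, 11.45, 11.54, 11.41 and 11.34 in stressed mice, against 11.87, 11.60, 11.71, 11.64 and 11.41 in control mice. Control mouse 5 lay within the stressed range and the other controls above it. The difference was -0.28 ± 0.11 (SE, limma adjusted p = 0.570) over all 10 arrays and -0.22 ± 0.10 (SE, limma adjusted p = 0.273) without control mouse 1. Cybb, the catalytic subunit of the phagocyte NADPH oxidase, differed by 0.0031 ± 0.15 (SE) and -0.13 ± 0.10 (SE), and its other 2 probe sets had negative differences, of -0.16 and -0.06, over all 10 arrays.

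Lyz2, the lysozyme of macrophages, was at 12.08, 12.05, 12.07, 11.91 and 12.09 in stressed mice and at 10.06, 12.20, 11.93, 12.08 and 12.17 in control mice. Control mouse 1 was far below all the others, which overlapped. Lyz1, the closely related lysozyme of Paneth cells, was at 14.30 to 14.37 in stressed mice, at 11.55 in control mouse 1 and at 14.27 to 14.35 in the other controls. The Lyz2 difference was 0.35 ± 0.35 (SE) over all 10 arrays and -0.06 ± 0.08 (SE) without control mouse 1. Whether the Lyz2 probe set takes up Lyz1 transcripts was not tested.

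Of the neutrophil genes, Csf3r, the receptor for granulocyte colony-stimulating factor, was at 4.49, 4.43, 4.36, 4.46 and 4.38 in stressed mice, against 4.52, 4.74, 4.75, 4.53 and 4.52 in control mice. All stressed mice lay below all controls, but the highest stressed value, 4.49, and the lowest control value, 4.52, were close together, and all were near the floor of 4.15. It differed by -0.19 ± 0.08 (SE, limma adjusted p = 0.591) over all 10 arrays and by -0.21 ± 0.08 (SE), at a limma adjusted p of 0.185, without control mouse 1. Ngp, a granule protein of neutrophil precursors, differed by -0.04 ± 0.07 (SE) and -0.03 ± 0.08 (SE). S100a8 and S100a9, the calprotectin subunits that neutrophils hold in quantity, lay below the floor on average. S100a9 was at 3.06 to 3.44 in stressed mice and at 3.32, 4.08, 4.37, 3.31 and 3.94 in control mice, and S100a8 at 2.75 to 3.19 and at 2.69 to 3.69. Both calprotectin probe sets thus had means below the floor, and their groups overlapped.

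Because PU.1, the Spi1 product, binds near many myeloid genes, the RefSeq promoters (GRCm38.p6, 250 bases before to 50 after the start) were searched for GAGGAA, a core of PU.1 sites, on both strands. Promoters of 29 of the 40 genes were in the table. The letters stood in 19 of their 32 promoters (59.4%), against 28.3% of all 32851 promoters of the same length. Some genes have several promoters, and those of Fcgr3 and Clec7a overlap. Counted by gene, 17 of 29 (58.6%) held the letters, against 31.3% of all 27025 genes. Such a match is a description and not a bound site. The promoters of a CD11b chain, a class II protease and 2 C1q chains are shown because their genes are described above and their promoters hold the core. Capitals mark GAGGAA or its reverse complement, TTCCTC.
Itgam, chr7:128062390-128062689, + strand: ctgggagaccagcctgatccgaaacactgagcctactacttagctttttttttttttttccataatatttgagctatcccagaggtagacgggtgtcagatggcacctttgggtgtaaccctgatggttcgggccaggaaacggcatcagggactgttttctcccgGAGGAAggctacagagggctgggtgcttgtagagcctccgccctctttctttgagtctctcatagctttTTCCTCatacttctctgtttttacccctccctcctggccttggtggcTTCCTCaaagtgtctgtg
Ctss, chr3:95526536-95526835, + strand: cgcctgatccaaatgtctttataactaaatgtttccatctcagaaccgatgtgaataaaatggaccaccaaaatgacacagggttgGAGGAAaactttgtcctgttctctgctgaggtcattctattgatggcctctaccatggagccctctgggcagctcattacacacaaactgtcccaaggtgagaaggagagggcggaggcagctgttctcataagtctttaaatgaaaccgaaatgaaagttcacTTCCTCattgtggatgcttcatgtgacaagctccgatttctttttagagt
C1qb, chr4:136886151-136886450, - strand: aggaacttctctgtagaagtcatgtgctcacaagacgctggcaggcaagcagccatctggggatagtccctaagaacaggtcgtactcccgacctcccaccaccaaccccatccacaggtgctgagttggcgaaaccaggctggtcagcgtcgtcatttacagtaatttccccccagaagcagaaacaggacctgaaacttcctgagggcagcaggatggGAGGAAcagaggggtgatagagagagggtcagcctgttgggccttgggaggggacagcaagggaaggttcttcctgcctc
C1qc, chr4:136892865-136893164, - strand: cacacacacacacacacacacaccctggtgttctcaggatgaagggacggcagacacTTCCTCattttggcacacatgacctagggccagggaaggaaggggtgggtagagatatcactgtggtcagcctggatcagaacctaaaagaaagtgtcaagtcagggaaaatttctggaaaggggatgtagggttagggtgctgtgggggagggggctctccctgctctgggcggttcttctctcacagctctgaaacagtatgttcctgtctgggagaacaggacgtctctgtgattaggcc
Itgam held the core at 3 places and Ctss at 2, C1qb and C1qc at 1 each, and on the printed strand C1qb held it as GAGGAA and C1qc as TTCCTC. The promoters of Fcgr2b, Fcer1g, Itgax, Flt3 and Lgmn in the table did not hold these letters.

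Further genes of the same pathways were read from lists of growth factors and regulators, phagocyte oxidase and signalling, macrophage and dendritic cells, granulocytes and lysosomes. Over all 10 arrays limma called none of their 59 tested genes at an adjusted p under 0.05. Without control mouse 1 it called 3 of the 59, Irf4, Rac2 and Ltf, all of which fell. Over all genes it called 0.798% there, 73 genes lower and 36 higher. Rac2, a GTPase of the phagocyte oxidase that lymphocytes also transcribe, was at 5.66, 5.59, 5.92, 5.72 and 5.85 in stressed mice, against 6.13, 6.72, 6.48, 6.12 and 6.26 in control mice. The groups did not overlap, as for 1.12% of all genes with stressed mice lower over all 10 arrays. The difference was -0.59 ± 0.12 (SE, limma adjusted p = 0.301) over all 10 arrays and -0.65 ± 0.12 (SE, limma adjusted p = 0.0347) without control mouse 1.

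Irf4, a transcription factor of plasma cells and of a subset of dendritic cells, was at 4.67 to 4.97 in stressed mice. It was at 4.57 in control mouse 1 and at 5.36 to 6.01 in the other controls. With control mouse 1 left out it fell by 0.81 ± 0.13 (SE), at a limma adjusted p of 0.0262, and its difference over all 10 arrays was -0.60 ± 0.22 (SE), at a limma adjusted p of 0.520. Ltf, the iron-binding lactoferrin of neutrophil granules and epithelia, was at 3.89 to 4.23 in stressed mice, at 3.59 in control mouse 1 and at 4.42 to 4.92 in the other controls. Ltf had a stressed mean of 4.11, below the floor of 4.15, and passed the filter on low values only through the controls. With control mouse 1 left out it fell by 0.61 ± 0.11 (SE), at a limma adjusted p of 0.0330, and its difference over all 10 arrays was -0.39 ± 0.22 (SE), at a limma adjusted p of 0.734.

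Of the oxidase and signalling list, 10 of 11 tested genes had lower means without control mouse 1 and 9 over all 10 arrays, with medians of -0.23 and -0.14. The shares of all genes with lower means were 43.8% and 49.1%. Ncf1, the organising subunit of the oxidase, was at 5.70 to 6.15 in stressed and 6.23 to 6.73 in control mice, with no overlap. It differed by -0.50 ± 0.12 (SE, limma adjusted p = 0.345) and -0.55 ± 0.12 (SE, limma adjusted p = 0.0599). Syk, a kinase that acts below the adaptors, had the opposite sign, at 0.19 ± 0.08 (SE) and 0.14 ± 0.08 (SE). Of 13 tested growth factors and regulators, 8 had lower and 5 higher means over all 10 arrays, and 9 and 4 without control mouse 1, with medians of -0.05 and -0.06. Csf2rb, the common beta chain of the GM-CSF, IL-3 and IL-5 receptors, showed no overlap, with 5.22 to 5.67 in stressed and 5.85 to 6.51 in control mice. It differed by -0.57 ± 0.13 (SE, limma adjusted p = 0.329) and -0.60 ± 0.13 (SE, limma adjusted p = 0.0633). Id2, a transcriptional regulator needed by several dendritic and lymphoid cells, lay the other way with no overlap, at 9.31 to 9.56 in stressed and 8.60 to 9.22 in control mice. Its difference was 0.48 ± 0.11 (SE, limma adjusted p = 0.329) and 0.48 ± 0.12 (SE, limma adjusted p = 0.0805). Over all 10 arrays the groups did not overlap for 1.12% of all genes with stressed mice lower and 1.16% with stressed mice higher. Without control mouse 1 these shares were 2.72% and 4.51%. Genes without overlap were not counted in the further lists.

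The other lists were not uniform. Of all genes, 49.1% were lower over all 10 arrays and 43.8% without control mouse 1. Of 17 granulocyte genes, 14 had a probe set of their own and 7 of these were tested, the rest lying below the floor of 4.15. All 7 tested had lower means in either comparison, with medians of -0.21 and -0.27. Among them Ltf and Fpr2 had stressed means of 4.11 and 4.15, below or at the floor. Of 16 further macrophage and dendritic cell genes, 12 were lower over all 10 arrays and 10 without control mouse 1. Ccr2, the chemokine receptor of incoming monocytes, differed by -0.32 ± 0.12 (SE) and -0.35 ± 0.12 (SE), and Mertk, a receptor for dying cells, by 0.39 ± 0.13 (SE) and 0.33 ± 0.12 (SE). Of 12 lysosome genes that most cells transcribe, 5 were higher over all 10 arrays and 8 without control mouse 1, with medians of -0.01 and 0.10. Among them Lipa, the lysosomal acid lipase, differed by 0.24 ± 0.12 (SE, limma adjusted p = 0.700) and 0.35 ± 0.08 (SE, limma adjusted p = 0.0669).

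Most markers of other immune cells also had lower means in stressed mice, against 49.1% of all genes over all 10 arrays and 43.8% without control mouse 1. All 5 pan-leukocyte genes had lower means in stressed mice, with a median difference of -0.44 over all 10 arrays and -0.55 without control mouse 1. Their list mean was 7.23 to 7.67 in stressed mice, at 7.55 in control mouse 1 and 7.72 to 8.28 in the other controls. Ptprc, which encodes the leukocyte antigen CD45, differed by -0.40 ± 0.15 (SE, limma adjusted p = 0.536) and -0.48 ± 0.14 (SE, limma adjusted p = 0.111). All 7 tested B cell and follicle genes were lower in both comparisons, with list means of 4.92 to 5.22 in stressed mice, 4.62 in control mouse 1 and 5.29 to 6.52 in the other controls. Without control mouse 1 limma called 2 of them, against 0.798% of all genes. Ly6d differed there by -1.03 ± 0.16 (SE, limma adjusted p = 0.0245) and Pou2af1 by -1.28 ± 0.24 (SE, limma adjusted p = 0.0372). Over all 10 arrays they differed by -0.71 ± 0.31 (SE, limma adjusted p = 0.611) and -0.77 ± 0.49 (SE, limma adjusted p = 0.770). Of 7 T cell genes 6 were lower, with list means of 5.36 to 5.53 in stressed and 5.51 to 5.93 in control mice. Of 5 cytotoxic lymphocyte genes 4 were lower in either comparison, with list means of 5.19 to 5.75 in stressed and 5.59 to 7.19 in control mice. Gzma differed by -1.77 ± 0.72 (SE) and -2.26 ± 0.61 (SE), Gzmb by -1.43 ± 0.52 (SE) and -1.86 ± 0.39 (SE), and Prf1 by 0.07 ± 0.08 (SE) and 0.08 ± 0.08 (SE). None of the 5 was called. Of 4 mast cell genes, 4 were lower over all 10 arrays and 3 without control mouse 1. There Kit differed by 0.25 ± 0.13 (SE). The list means were 4.58 to 4.92 in stressed and 5.08 to 6.42 in control mice. Cpa3 passed in the second comparison, at -0.48 ± 0.085 (SE, limma adjusted p = 0.0329), against 0.798% of all genes. In the first it stood at -0.42 ± 0.10 (SE, limma adjusted p = 0.342). Mcpt1 stood at -1.49 ± 0.38 (SE) and -1.55 ± 0.39 (SE), and Mcpt2 at -1.58 ± 0.40 (SE) and -1.53 ± 0.42 (SE). In stressed mice these 3 genes lay below the floor of 4.15, at 2.96 to 4.12.

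The mean over the 36 myeloid genes was 6.83, 6.72, 6.88, 6.80 and 6.74 in stressed mice, against 6.78, 7.16, 7.00, 6.93 and 6.86 in control mice. Control mouse 1 lay among the stressed mice, and control mouse 5 lay just below stressed mouse 3. Control mouse 2 was highest in this mean and in those of the pan-leukocyte, T cell and cytotoxic lymphocyte lists, and control mouse 5 in those of the B cell and mast cell lists. With the B cell and follicle list mean as a covariate, 7 of the 36 genes were lower at an unadjusted p under 0.05 in either comparison, against 7.13% of all genes over all 10 arrays and 4.39% without control mouse 1. In the second comparison this list mean did not itself overlap between the groups, so that fit cannot tell it from stress. Smooth muscle genes had list means of 10.19 to 11.13 in stressed mice, 11.72 in control mouse 1 and 10.46 to 10.85 in the other controls. Of 6 ileal epithelium genes limma called 1 without control mouse 1, Fgf15, against 0.798% of all genes. It was higher there by 1.73 ± 0.32 (SE, limma adjusted p = 0.0347), and over all 10 arrays by 2.41 ± 0.65 (SE, limma adjusted p = 0.373). The part of cell make-up in the myeloid differences was not tested.

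**Figure D3:**
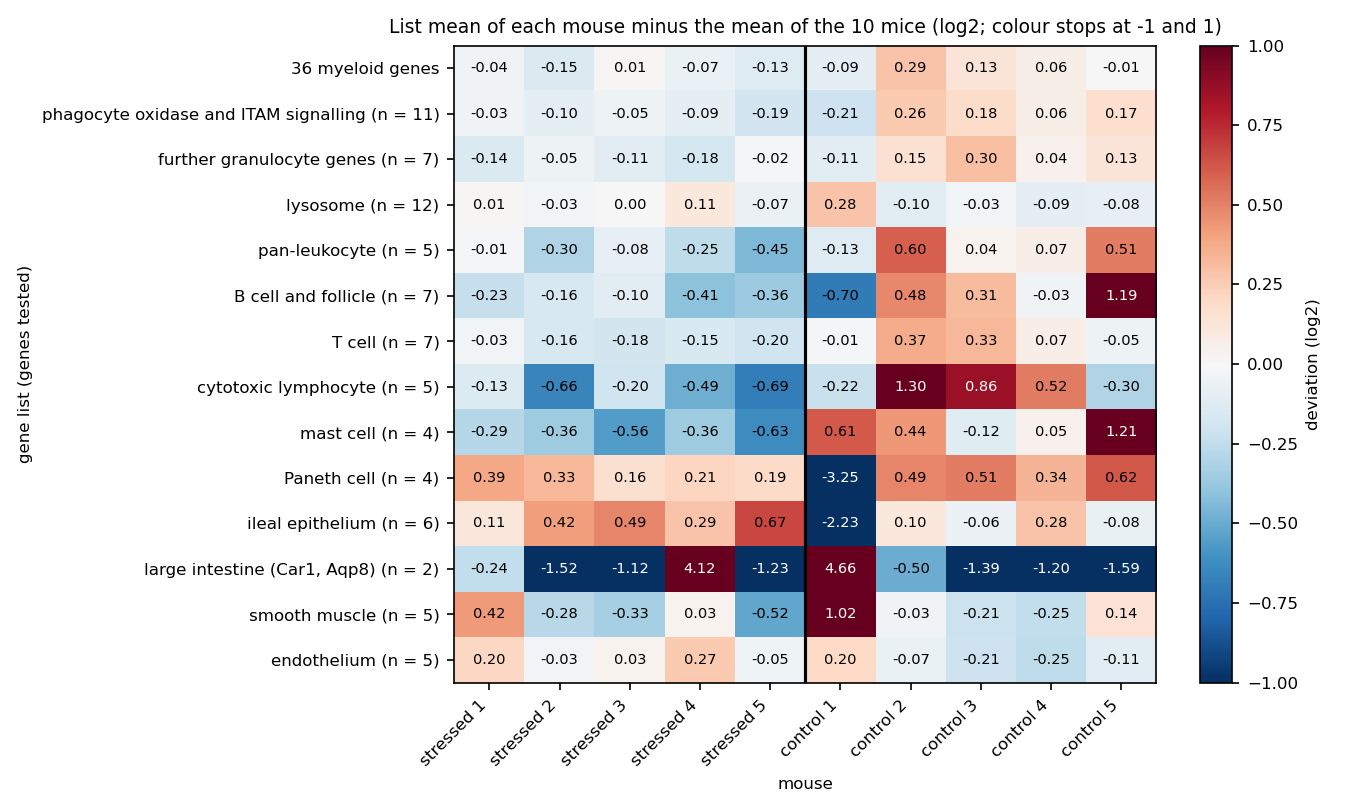
Mean of each gene list in each mouse minus the mean of the 10 mice (log2), stressed mice left of the line and control mice right of it; colours stop at -1 and 1 and the numbers give the values. The 36 myeloid genes span -0.15 to 0.29, less than the B cell list at -0.70 to 1.19. Control mouse 1 and stressed mouse 4 stand out for the large intestine markers Car1 and Aqp8, and control mouse 1 alone for the Paneth cell and ileal epithelium lists.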

How the data were processed

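Terminal ileum RNA of 10 mice was measured on 10 Affymetrix mouse arrays, 1 per mouse, from 100 ng of RNA per the labels' protocols. The authors deposited log2 probe set values made with RMA, per the submitters' processing notes, and the software version is not given in the sources used here. RMA's quantile normalization hides shifts in total RNA, changes near background are understated, and levels of different probe sets are not comparable. Arrays carry no read depth, so the number of arrays limits the precision.

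Of 45101 probe sets, 34945 carried 1 gene symbol in GEO's platform annotation, 932 several and 9160 none; 34741 matched a RefSeq gene by Entrez identifier and 0 symbols changed. The lowest 40 percent of probe sets by mean were left out (floor 4.15), and each of 13666 genes was read from its probe set with the highest mean. Stressed and control mice, grouped by sample title, were compared with limma 3.58.1 (lmFit, eBayes; R 4.3.3), with Benjamini-Hochberg adjustment over all genes. The labels do not name litters or batches. Differences are stressed minus control in log2, with limma's SE. The fit was run on simulated data with independent genes and differences larger than any of the set, so that run does not bear on differences of this size.

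The 40 genes and all gene lists were chosen with earlier results of these data known. Values per mouse are given for genes of the set at an unadjusted p under 0.05, or with groups that do not overlap, in either comparison. Csf1r and Lyz2 were added after their values were seen. Of the pathway lists, called genes or, with none called, some of the first 3 by p are named. Of the lists of other cells, called genes are named. Csf2rb, Id2, Ncf1, Syk, Ptprc, Kit, Mcpt1, Mcpt2, Gzma, Gzmb and Prf1 were added after their values were seen. Alternatives were other filters, probe set means, array weights, trended variances, centred arrays, the replicate number as a block, a B cell covariate and leaving out each mouse.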

Additional observations from a re-analysis of the deposited data

Results flagged for a closer look

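In 6 of 78 groups of mice tested, 1 mouse lay far from the others of its group for a gene of the set, judged by its gap to the nearest other mouse over the group's range. Chance marks about 1 in 20 groups. Control mouse 1 was such a mouse for 3 genes: it was highest for Cd163 at 6.70, against 5.86 in the next control, lowest for Batf3 at 5.39, against 5.73, and lowest for Lyz2 at 10.06, against 11.93. Control mouse 2 was highest for Itgb2 at 7.06, against 6.56 in the next control. Stressed mouse 4 was lowest for Lyz2 at 11.91, against 12.05 in the next stressed mouse. Control mouse 3 was highest for Marco at 3.95, against 3.33, below the floor on low values.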

How the results depend on the processing

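Most differences of single genes kept their direction, with 37 of 639 values reversed with 10 arrays and 19 of 603 without control mouse 1, and the causes of the shifts below were not tested. With 10 arrays, limma called 2 genes with the mean of each gene's probe sets, 2 with centred arrays, 41 with array weights and 0 to 109 when 1 mouse was left out. The count of the 36 genes lower at an unadjusted p under 0.05 was 8 with array weights, 7 with the B cell covariate and 4 to 13 with 1 mouse left out. Their median difference was then -0.21 to -0.0704. Without control mouse 1, limma called 169 genes with trended robust variances, 242 with centred arrays (81.8% lower, against 67.0%), 0 with the covariate and 6 to 154 with a further mouse left out. Of the set it called 1 (Lgmn) with centred arrays and 0 to 1 with a further mouse left out. The unadjusted count was 22 with centred arrays (11.5% of all genes, whose median moved to -0.04), 7 with the covariate and 6 to 20 with a mouse left out, when the median was -0.25 to -0.14. Without control mouse 1 the values of the covariate did not overlap between the groups. With the replicate block, 7 of the 36 genes were lower at an unadjusted p under 0.05 with 10 arrays. Without control mouse 1 the block also dropped stressed mouse 1, and on those 8 arrays it gave 12 of the 36 and 95 called genes, against 32 called on the same arrays with no block. The deviations of same-numbered mice from their group means correlated across genes above 0.1 in 2 of 5 pairs, and at -0.30 in the pair of number 4. In these deviations, 2 of 5 stressed mice correlated best with the control of their own number, so the numbers were not taken as pairs. Reversed with 10 arrays were Cybb at -0.0735 with mean probe sets, -0.0287 centred and -0.13 with array weights, which also gave Adgre1 0.0066, Mrc1 0.0319, Clec10a 0.0165 and Lyz2 -0.0328. The covariate gave Aif1 0.0481, Spi1 0.0146, Cd163 -0.15, Msr1 0.0505, Itgam 0.13, Clec7a 0.16, Clec4n 0.0265, Batf3 0.0108 and Zbtb46 0.0519. Without control mouse 1, Adgre1 was 0.0197 with array weights, centring gave Mrc1 -0.0240 and Clec10a -0.0497, and the covariate gave Clec10a -0.11, Lyz2 0.0359, Cybb 0.0149 and Ngp 0.0881. With 1 of 10 mice left out the ranges were Mpeg1 -0.16 to 0.0339, Aif1 -0.27 to 0.0116, Mrc1 -0.0896 to 0.0406, Msr1 -0.27 to 0.0326, Fcgr3 -0.0639 to 0.0384, Clec7a -0.18 to 0.11, Clec10a -0.22 to 0.0150, Clec4n -0.25 to 0.0632, Zbtb46 -0.10 to 0.0530, Siglech -0.0862 to 0.0286, Lyz2 -0.0567 to 0.48 and Cybb -0.13 to 0.11. With a further mouse left out beside control mouse 1 they were Adgre1 -0.0482 to 0.0818, Mrc1 -0.0064 to 0.10, Fcgr3 -0.0642 to 0.0721, Clec10a -0.0669 to 0.12 and Ngp -0.0905 to 0.0047. Leaving out 1 mouse thus turned some differences round, and genes near the floor have little signal over background.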
